A study of Mus musculus with 2 samples.

Results

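Neuregulin 1 (Nrg1) and the 4 receptors of the epidermal growth factor receptor family, Erbb2, Erbb3, Erbb4 and Egfr, were examined by allele in nuclei of an adult and an aged mouse heart. The 5 genes were chosen by name and each had a row in both libraries, out of 24015 genes listed in the adult heart and 22691 in the aged heart. Nuclei of female F1 hybrids of the C57BL/6J (BL6) and CAST/EiJ (CAST) strains, with a BL6 mother, were profiled by single-nucleus RNA-seq (snRNA-seq). There was 1 heart per age, taken at 9 weeks for the adult and at 78 weeks for the aged animal. Only nuclei with an active BL6 X chromosome were pooled, and nuclei of all cell types entered the same pool. The genotype label names the plain strain cross, the breed label names a mother from the Xist-mutant line, and the methods of the study describe wild-type hybrids for this experiment. The name of the aged library's file carries another week number than its labels, and the week number of the labels was kept here.

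Neuregulin 1 is a growth factor with an EGF-like domain that in the heart is made largely by endocardial and endothelial cells. It binds ErbB4 or ErbB3, and these pair with ErbB2, which has no known ligand of its own, so that the signal enters the cardiomyocyte mainly through ErbB4 and ErbB2. The pathway is required for trabeculation of the embryonic ventricle and for maintenance of adult heart muscle, and blocking ErbB2 can impair cardiac function. ErbB3 has a weak kinase and is best known from Schwann cells and other glia, and EGFR binds EGF, TGF-alpha, HB-EGF and related ligands.

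The 4 receptors arose from a common ancestor. The stretch around the catalytic loop of the kinase domain is shown because it is a shared element of the 4 coding sequences in which their differences can be seen. Whether reads of 1 receptor were counted for another was not tested. Each stretch holds 54 coding bases of exon 21 of the longest complete transcript (GENCODE M21, GRCm38, 5′ to 3′ in the sense of the gene), and the capitals mark the codon of the catalytic aspartate.
Egfr: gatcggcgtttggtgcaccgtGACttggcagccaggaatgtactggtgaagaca
Erbb2: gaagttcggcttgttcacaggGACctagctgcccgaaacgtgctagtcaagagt
Erbb3: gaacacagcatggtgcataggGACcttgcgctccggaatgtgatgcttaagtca
Erbb4: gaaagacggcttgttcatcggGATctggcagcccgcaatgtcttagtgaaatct
The stretches lie at chr11:16904323-16904376 on the plus strand for Egfr, chr11:98434232-98434285 on the plus strand for Erbb2, chr10:128572518-128572571 on the minus strand for Erbb3 and chr1:68080724-68080777 on the minus strand for Erbb4. The codon encodes residue 839 of Egfr, 846 of Erbb2, 832 of Erbb3 and 843 of Erbb4, and it was GAT in Erbb4 and GAC in the other receptors. Pairs of receptors shared between 32 and 38 of the 54 bases, with 59.3% for the most distant pairs, which both involve Erbb3, and 70.4% for Erbb2 and Erbb4. The encoded receptors have 1210 (Egfr), 1256 (Erbb2), 1339 (Erbb3) and 1308 residues (Erbb4).

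The values are counts of reads over a base that distinguishes the strains (SNP), so that each read is assigned to the BL6 or the CAST allele. The adult library held 9747535 and the aged library 5805807 such reads, and reads scaled to 1000000 of these (RPM) were used to compare the ages. 1 read equals 0.103 RPM in the adult and 0.172 RPM in the aged library. The allelic ratio is the BL6 share of a gene's reads. All 5 genes are autosomal, so their reference is the autosomal allelic ratio, with a median of 0.536 (interquartile range 0.474 to 0.604) for the adult heart against 0.537 (0.465 to 0.613) for the aged one. Cardiomyocyte markers were abundant in both libraries, with a summed level over 10 genes of 37725 RPM in the adult and 32792 RPM in the aged heart. No test between the ages could be made, since each is represented by 1 library. All 95% intervals cover counting error only, not the spread between animals. Those of ratios per marker read take the marker reads as fixed and leave out their counting error. A gene was called lower or higher where the aged over adult RPM ratio was 1/1.5 or below or 1.5 or above. Of 12390 autosomal genes with at least 20 reads in both libraries, 11.7% were called lower and 28.3% higher. The median ratio over the 12736 genes of all chromosomes was 1.17 (0.22 on the log2 scale), and 11.8% of these were lower and 28% higher. Dividing by this median, as DESeq2 size factors do, changed the split of the autosomal calls to 18.2% lower and 18.2% higher. The share of higher calls among all calls thereby went from 70.8% to 49.9%, so ratios over the median are given beside those of the RPM.

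Nrg1 and Erbb4, the ligand and its receptor, were lower in the aged than in the adult library, whereas Egfr, Erbb2 and Erbb3 lay within the threshold in both directions. Thus 2 of the 5 genes were called lower and 0 were called higher, beside 11.7% and 28.3% of the autosomal genes. Both alleles of Nrg1 and of Erbb4 were lower. The summed level of the 5 genes was 2730 RPM in the adult and 1108 RPM in the aged heart, a ratio of 0.406 (95% interval 0.395 to 0.417). Erbb4 held 86.8% and 80.3% of these reads, so the sum mainly describes Erbb4. In pooled nuclei, fewer nuclei of a cell type and less RNA per nucleus cannot be told apart.

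**Figure D1:**
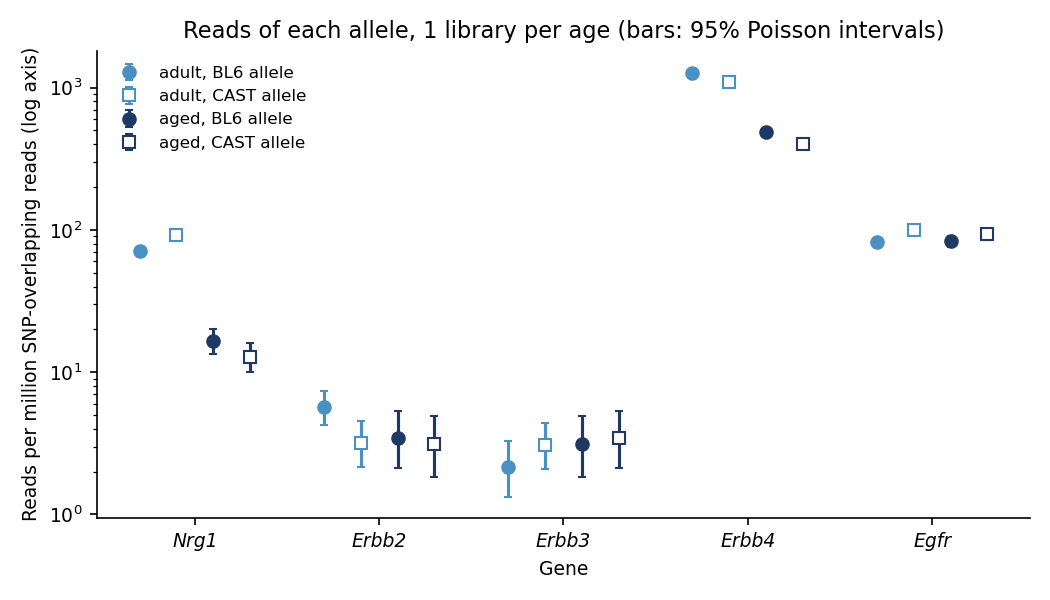
RPM (log axis) of the BL6 allele (circles) and the CAST allele (squares) of each gene in the adult and the aged library, with 95% Poisson intervals. Nrg1 went from 70.6 to 16.5 RPM on the BL6 allele and from 91.9 to 12.7 RPM on the CAST allele, Erbb4 was lower on both alleles, and the points of Egfr lay side by side.

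Nrg1 (chr8:31809465-32884820, minus strand, 1075 kb) had 1584 adult and 170 aged reads. The adult reads were 688 BL6 and 896 CAST, the aged reads 96 BL6 and 74 CAST. Its adult level was 163 RPM (155 to 171), and its aged level was 29.3 RPM (25 to 34.0). The aged level was thus below the adult one on either allele. The RPM ratio was 0.180 (0.153 to 0.211), or 5.55-fold lower, and 0.155 when divided by the median of all genes. The BL6 reads alone gave 0.234 (0.187 to 0.290) and the CAST reads alone 0.139 (0.108 to 0.176), and these intervals did not overlap. Ranked by reads among the genes of its library, Nrg1 was at position 1215 of the adult genes and at position 5615 of the aged genes. A ratio as low was found for 36 of the 12390 autosomal genes (0.291%), Nrg1 included.

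Nrg1 is a long locus from which several transcripts arise, and GENCODE M21 lists 12 protein-coding ones. The counts are totals per gene and do not show where in the locus the reads lie. Loci listed inside it could share reads with it, since the counting is not stated to use strand. Gm33223 had 50 adult and 4 aged reads, equal to 3.16% and 2.35% of those of Nrg1. Gm39155 had 7 and 5 reads, all of the BL6 allele, and Gm8179 had 2 and 0. These loci are thus small beside the difference in Nrg1. The nearest loci outside with at least 20 reads in both libraries were Fut10, at 544 kb, and Wrn, at 350 kb. Their ratios were 0.949 and 0.986, so the lower value did not extend to them.

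Erbb4 (chr1:68031884-69110787, minus strand, 1079 kb), which encodes the neuregulin receptor of the cardiomyocyte, had 23103 reads in the adult library (12344 BL6 and 10759 CAST). In the aged library it had 5162 reads (2819 BL6 and 2343 CAST). The adult level was 2370 RPM (2340 to 2401), and the aged level was 889 RPM (865 to 914). It was the most abundant gene of the family by reads at both ages, at position 32 of all adult genes and 107 of all aged genes. The RPM ratio was 0.375 (0.364 to 0.387), or 2.67-fold lower, and 0.322 over the median of all genes. The ratio was 0.383 (0.368 to 0.399) for the BL6 reads and 0.366 (0.349 to 0.382) for the CAST reads, with overlapping intervals, so that the alleles could not be distinguished. A ratio as low was found for 252 of the autosomal genes (2.03%), Erbb4 and Nrg1 included. No listed locus overlaps Erbb4. Of the nearest loci with at least 20 reads in both libraries, Lancl1, at 993 kb, had a ratio of 1.01 and Ikzf2, at 420 kb, a ratio of 0.492.

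Erbb2 (chr11:98412484-98437716, plus strand, 25.2 kb), the shared partner of the other receptors, had 86 reads in the adult library (55 BL6 and 31 CAST) and 38 in the aged library (20 BL6 and 18 CAST). The adult level was 8.82 RPM (7.06 to 10.9), and the aged level was 6.55 RPM (4.63 to 8.98). The RPM ratio of 0.742 (0.493 to 1.10) had an interval that included 1, and a difference was not detectable at this depth. Over the median of all genes the ratio was 0.637, which is past the threshold for a lower call, so the call depends on the scale. The neighbouring Mien1 overlaps Erbb2 by 9 bases and had 4 and 6 reads.

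Erbb3 (chr10:128569368-128589501, minus strand, 20.1 kb), which binds neuregulins but signals through its partners, had 51 reads in the adult library (21 BL6 and 30 CAST) and 38 in the aged library (18 BL6 and 20 CAST). The adult level was 5.23 RPM (3.90 to 6.88), and the aged level was again 6.55 RPM (4.63 to 8.98). The RPM ratio was 1.25 (0.80 to 1.94), and 1.07 over the median of all genes. The interval included 1, as for Erbb2. Erbb3 and Erbb2 had the same number of reads in the aged heart, and neither gene can be called unchanged from so few reads.

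Egfr (chr11:16752203-16913907, plus strand, 162 kb), the receptor of EGF and not of neuregulin 1, had 1782 reads in the adult library (804 BL6 and 978 CAST) and 1023 in the aged library (483 BL6 and 540 CAST). The level was 183 RPM (174 to 192) and 176 RPM (166 to 187), respectively. The RPM ratio was 0.964 (0.892 to 1.04) and included 1, with 1.01 (0.899 to 1.13) for the BL6 reads and 0.927 (0.833 to 1.03) for the CAST reads. Over the median of all genes it was 0.827. Egfr had a number of adult reads similar to that of Nrg1 but more aged reads, and the ratio intervals of the genes did not overlap. The locus Gm39584 lies inside Egfr and had 204 and 110 reads, equal to 11.4% and 10.8% of those of Egfr.

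Per kb of locus, the order of the levels differed between the ages. These totals include intronic reads of nuclear RNA, and the density of SNPs, which differs between loci, was not corrected. In the adult heart, Erbb4 was highest with 2.20 RPM per kb, followed by Egfr with 1.13, Erbb2 with 0.350, Erbb3 with 0.260 and Nrg1 with 0.151. In the aged heart, Egfr came first with 1.09 RPM per kb, ahead of Erbb4 with 0.824, Erbb3 with 0.325, Erbb2 with 0.259 and Nrg1 with 0.0272. Erbb4 and Egfr thus exchanged places on this scale, with counting intervals that did not overlap at either age. By reads, Erbb4 was above Egfr at both ages, so the exchange depends on the division by length. Erbb2 and Erbb3 were neighbours in both orders and their intervals overlapped, so they could not be ranked.

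None of the 5 genes was biased towards 1 allele, defined as an allelic ratio of 0.7 or above or 0.3 or below in both libraries, beside 6.46% of the autosomal genes. Erbb4 was the most precisely measured, with an adult allelic ratio of 0.534 (0.528 to 0.541) and an aged one of 0.546 (0.532 to 0.560). Its change, adult minus aged, was -0.0118 (-0.0268 to 0.00325), and both values lay close to the autosomal medians. Egfr had 0.451 (0.428 to 0.475) and 0.472 (0.441 to 0.503), with a change of -0.0210 (-0.0593 to 0.0173). Both of its intervals lay below the autosomal medians, that is, towards CAST.

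For Nrg1, the adult allelic ratio was 0.434 (0.410 to 0.459) and the aged one 0.565 (0.487 to 0.640). The adult interval lay below the autosomal median of 0.536, towards CAST. The aged interval included equal shares and the autosomal median of 0.537, so a BL6 majority was not established. The change was -0.130 (-0.207 to -0.0513). For Erbb2, the allelic ratio was 0.640 (0.529 to 0.740) and 0.526 (0.358 to 0.690), with a change of 0.113 (-0.0692 to 0.293). For Erbb3 it was 0.412 (0.276 to 0.558) and 0.474 (0.310 to 0.642), with a change of -0.0619 (-0.260 to 0.140). The changes of Erbb2 and Erbb3 had intervals that included 0. An absolute change of 0.1 or more was thus seen for 2 of the 5 genes, Nrg1 and Erbb2, beside 28% of the autosomal genes, a share close to this background for so few genes. Among the 5893 autosomal genes with at least 100 but fewer than 1000 reads in the shallower library, to which Nrg1 belongs, 17% changed by 0.1 or more and 8.30% by as much as Nrg1. Of the neighbours of Nrg1, Fut10 had an allelic ratio of 0.512 and 0.367 and Wrn of 0.562 and 0.551.

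**Figure D2:**
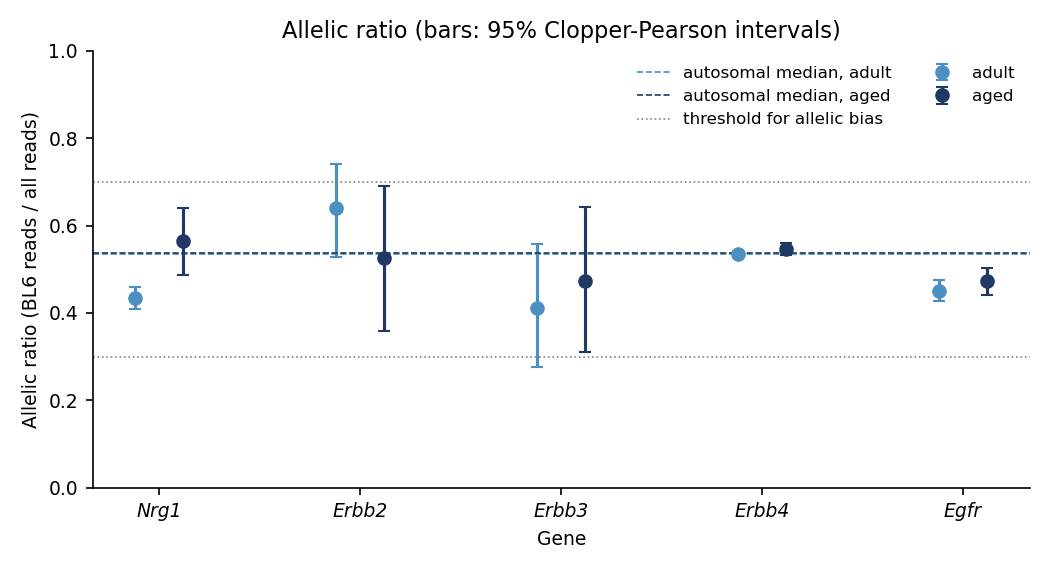
Allelic ratio (BL6 reads over all SNP-overlapping reads) of each gene in the adult and the aged library, with 95% Clopper-Pearson intervals. Dashed lines are the autosomal medians of 0.536 and 0.537, dotted lines the thresholds of 0.7 and 0.3, and the adult and aged intervals stand apart for Nrg1.

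Nrg1 and Erbb4 were also the longest loci of the family, and the RPM ratio varied with locus length over all autosomal genes. The median ratio was 1.38 for loci under 10 kb, 1.16 for 10 to 100 kb, 1.00 for 100 to 500 kb, 0.922 for 500 to 1000 kb and 1.08 for 1000 kb or longer. Of the 206 autosomal genes of 500 kb or longer, 28.6% were called lower and 21.8% higher, and their median ratio was 0.952. Nrg1 had the lowest ratio of these 206 genes, and 12 of them (5.83%), Erbb4 and Nrg1 included, had a ratio as low as that of Erbb4. Of the 53 genes of 1000 kb or longer, 13 were called lower, and 3 had a ratio as low as Erbb4, again with Erbb4 and Nrg1 among them. The part of locus length in the result was not tested.

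**Figure D3:**
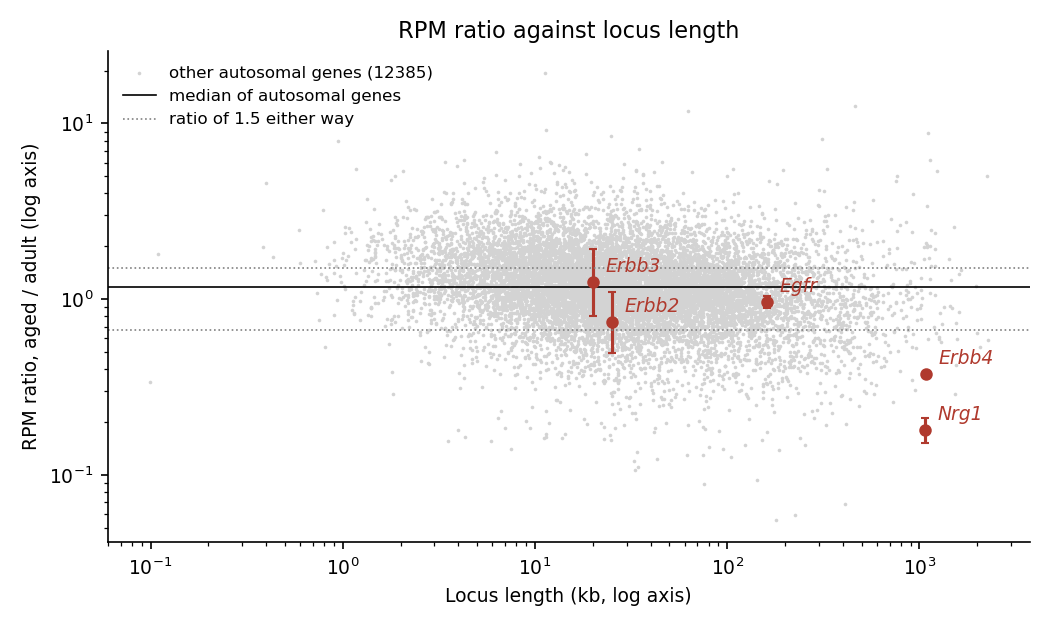
RPM ratio of aged over adult (log axis) against the length of the locus in kb (log axis) for the autosomal genes with at least 20 reads in both libraries (grey) and for the 5 genes (red, with 95% intervals). The solid line is the autosomal median of 1.17, the dotted lines mark a ratio of 1.5 in either direction, and Nrg1 (0.180) and Erbb4 (0.375) lie low among the loci of 1000 kb or longer.

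Markers of the cell types in which the genes are known to act were set beside them. The counts of markers called here and below stand beside 11.7% of the autosomal genes called lower and 28.3% called higher. Of the 5 endocardial markers, 3 were called lower, namely Npr3 (0.555), Tmem108 (0.575) and Smoc1 (0.629), while Cgnl1 had 1.10 and Plvap 2.93. Their summed level was 798 RPM in the adult and 572 RPM in the aged heart, a ratio of 0.716. The 10 endothelial markers had 1044 and 1537 RPM, a ratio of 1.47, with 0 lower and 4 higher, and Tek had the most reads. Per 1000 endocardial marker reads, Nrg1 had 204 adult and 51.2 aged reads, a ratio of 0.252 (0.214 to 0.295). Relative to the endothelial markers the ratio was 0.122 (0.104 to 0.143). Nrg1 was thus lower on either scale, and no endothelial or endocardial marker had a ratio as low as that of Nrg1. The part of cell composition in its lower value was not tested.

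The epicardial and mesothelial markers were the list with the lowest ratio. All 5 had RPM ratios of at most 0.302, with reads of 328 and 59 for Wt1, 756 and 25 for Muc16, 94 and 5 for Upk3b, 31 and 2 for Msln and 27 and 2 for Upk1b. Their summed level was 127 RPM in the adult and 16 RPM in the aged heart, a ratio of 0.126. Per epicardial marker read, the ratio of Nrg1 was 1.43 (1.21 to 1.67), above 1. This interval leaves out the counting error of the few aged marker reads and is too narrow. Muc16 held most of the adult reads of this scale and had an RPM ratio of 0.0555. Nrg1 (0.180) lay above Muc16 but below Wt1 (0.302), so a value above 1 depends on the marker. The part of epicardial and mesothelial cells in the lower value of Nrg1 was not tested.

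The 10 cardiomyocyte markers had a ratio of 0.869 in sum. Ryr2, with the most reads, had 1.15, and 3 markers were called lower, Ttn (0.580), Ctnna3 (0.592) and Rbm20 (0.628). Actc1 was called higher with 4.11. Per 1000 cardiomyocyte marker reads, Erbb4 had 62.8 adult and 27.1 aged reads, a ratio of 0.432 (0.419 to 0.445). None of the 10 markers had a ratio as low as that of Erbb4. Per epicardial marker read the ratio of Erbb4 was 2.97 (2.88 to 3.06). This interval, too, leaves out the counting error of the few aged marker reads. The part of cell composition in the lower value of Erbb4 was not tested.

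For Erbb3, the Schwann cell and glia markers Sox10 and Foxd3 were at or near 0, with 2 adult reads and 1 aged read for the former and 1 and 0 for the latter. Both are short loci, of 9.58 and 2.37 kb. Other genes of that list were detected, and Cdh19 had the most reads with 1024 and 777. Of the 5 with at least 20 reads in both libraries, 1 was called lower and 1 higher. The 10 genes summed to 215 and 249 RPM, a ratio of 1.16, and the ratio of Erbb3 per marker read was 1.08 (0.690 to 1.68). For Egfr, the ratio per fibroblast marker read was 0.997 (0.922 to 1.08), with a summed level of the 9 markers of 4091 and 3956 RPM and Lama2 as the gene with most reads. On this scale Egfr differed little between the libraries, but the median ratio of the fibroblast markers was 1.41, above that of their sum. On other scales Egfr did differ, with 0.655 per endothelial and 1.35 per endocardial marker read. The pericyte and smooth muscle markers, led by Myh11, had a summed ratio of 2.34 and the lymphatic endothelial markers, led by Prox1, of 1.61. The macrophage markers, led by F13a1, had 1.62 and the adipocyte markers, led by Pparg, 1.28. All of these exceeded the ratios of Nrg1 and Erbb4.

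**Figure D4:**
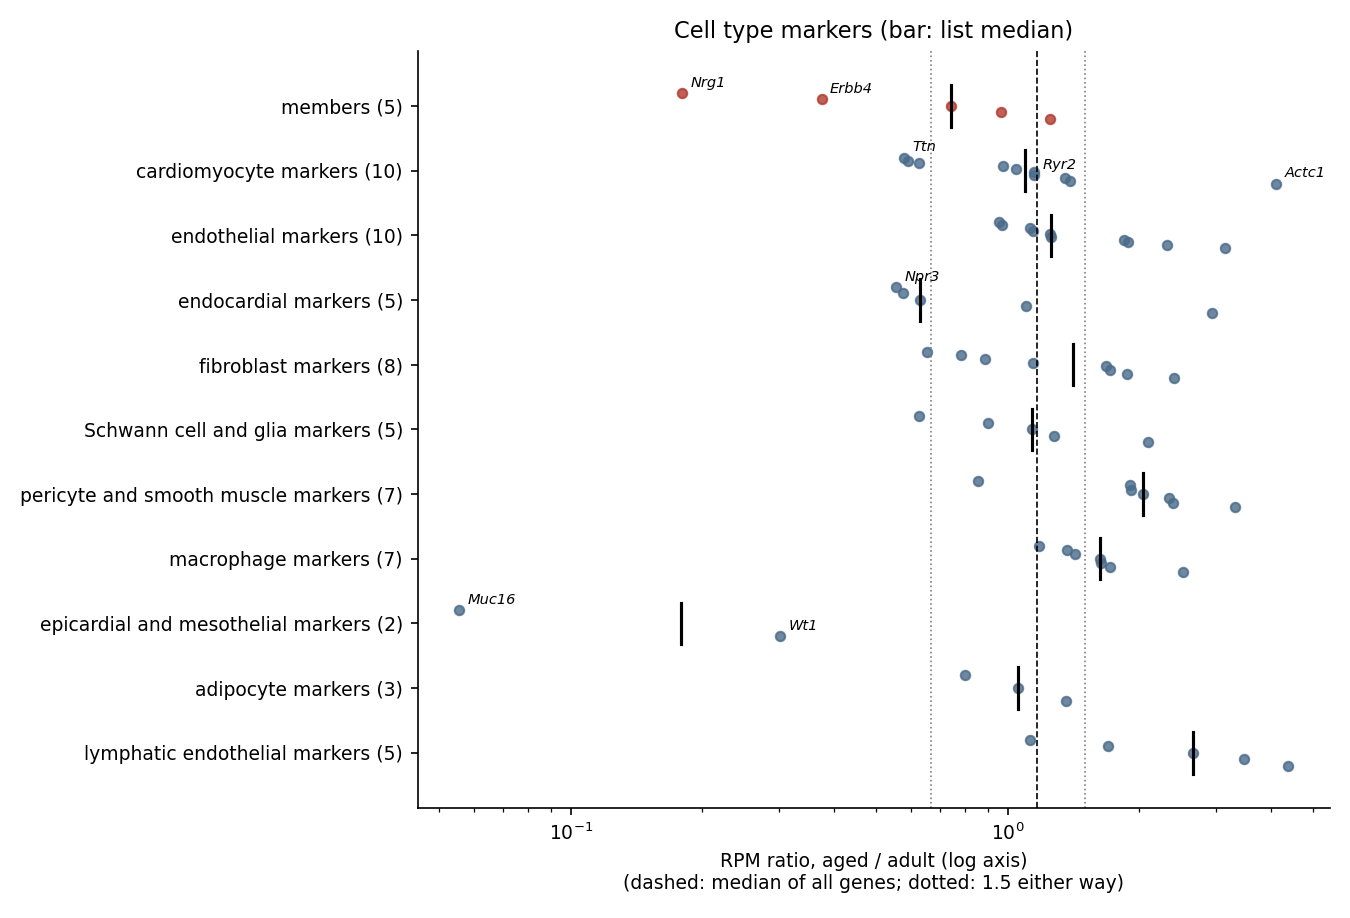
RPM ratio of aged over adult (log axis) of the 5 genes (red) and of cell type markers with at least 20 reads in both libraries (blue, number per list in brackets), with a bar at each list's median, a dashed line at the median of all genes (1.17) and dotted lines at 1.5 in either direction. Nrg1 at 0.180 lies below every marker except the epicardial gene Muc16, and Erbb4 at 0.375 below every marker except Muc16 and Wt1.

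Few of the other genes of the pathway were called lower. In 6 lists that hold ligands, ligand-releasing proteases, adaptors, the MAPK and PI3K branches and inhibitors, 64 of 65 genes were listed, and 52 reached 20 reads in each library. Of these, 1 was called lower (1.92%, beside 11.8% of all genes), 15 were called higher (28.8%, beside 28%) and 36 were neither. Their median ratio was 1.27, beside 1.17 over all genes. With DESeq2 size factors, 5 were lower and 6 higher, beside 18.2% of the autosomal genes in either direction, and the median was 1.09. 0 of the 52 genes were biased towards 1 allele in both libraries, beside 6.46% of the autosomal genes. The counts per list below stand beside 11.7% of the autosomal genes called lower and 28.3% called higher, and each list is small.

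Of the 10 other ligands of the family, 5 could be compared, and 1 was called lower and 2 higher. Egf, which binds EGFR, was the 1 pathway gene called lower, with 137 adult and 23 aged reads and a ratio of 0.282 (0.173 to 0.441). Nrg3, a ligand of ErbB4, had 24 and 127 reads and was higher with a ratio of 8.88 (5.71 to 14.4). Nrg4, another ligand of ErbB4, had the most reads, 612 and 285, with a ratio of 0.782 (0.677 to 0.901). Nrg2 had 167 and 78 reads and a ratio of 0.784 (0.591 to 1.03). Of the 4 neuregulins, Nrg1 was thus called lower and Nrg3 higher, and Nrg2 and Nrg4 lay within the threshold. Tgfa, which binds EGFR, was the other ligand called higher, with 80 and 89 reads and a ratio of 1.87 (1.37 to 2.56). Nrg3 had few adult reads and Egf few aged reads, so that both ratios are imprecise. Of the ligands below 20 reads in a library, Btc had 49 and 12, Hbegf 18 and 23 and Areg 0 and 1.

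The proteases release or cut the membrane-bound ligands. Of 9 compared, 0 were lower and 3 higher, from Adam19 (0.70, 0.659 to 0.743), a protease implicated in neuregulin processing and the one with most reads, to Bace1 (1.73, 1.48 to 2.03), which cleaves neuregulin 1. Of 11 adaptors, 0 were lower and 3 higher. The docking protein Gab1 had the lowest ratio (0.887), the kinase Src the highest (2.60) and the docking protein Gab2 the most reads (1.54). Within the MAPK branch, 0 of 7 genes were lower and 2 higher. The kinase gene Map2k2 had the highest ratio (1.78) and Braf the most reads (1.03).

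Within the PI3K branch, 0 of 8 genes were lower and 1 higher, from the regulatory subunit Pik3r1 (0.701, 0.668 to 0.734), which also had the most reads, to Pik3r3 (1.51, 1.31 to 1.74). Of 12 inhibitors of the receptors or of the MAPK branch, 0 were lower and 4 higher. Lrig1, which promotes receptor degradation, had the lowest ratio (0.747) and Spry4 the highest (4.13, 3.28 to 5.24). Spry4 had 104 adult and 256 aged reads. The ubiquitin ligase gene Cblb had the most reads (1.13). On the scale of DESeq2 size factors, the 5 pathway genes past the threshold for lower calls were Egf, Adam19, Pik3r1, Lrig1 and the receptor inhibitor Errfi1. These were 5 of 52 genes, and on that scale 18.2% of the autosomal genes were lower.

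**Figure D5:**
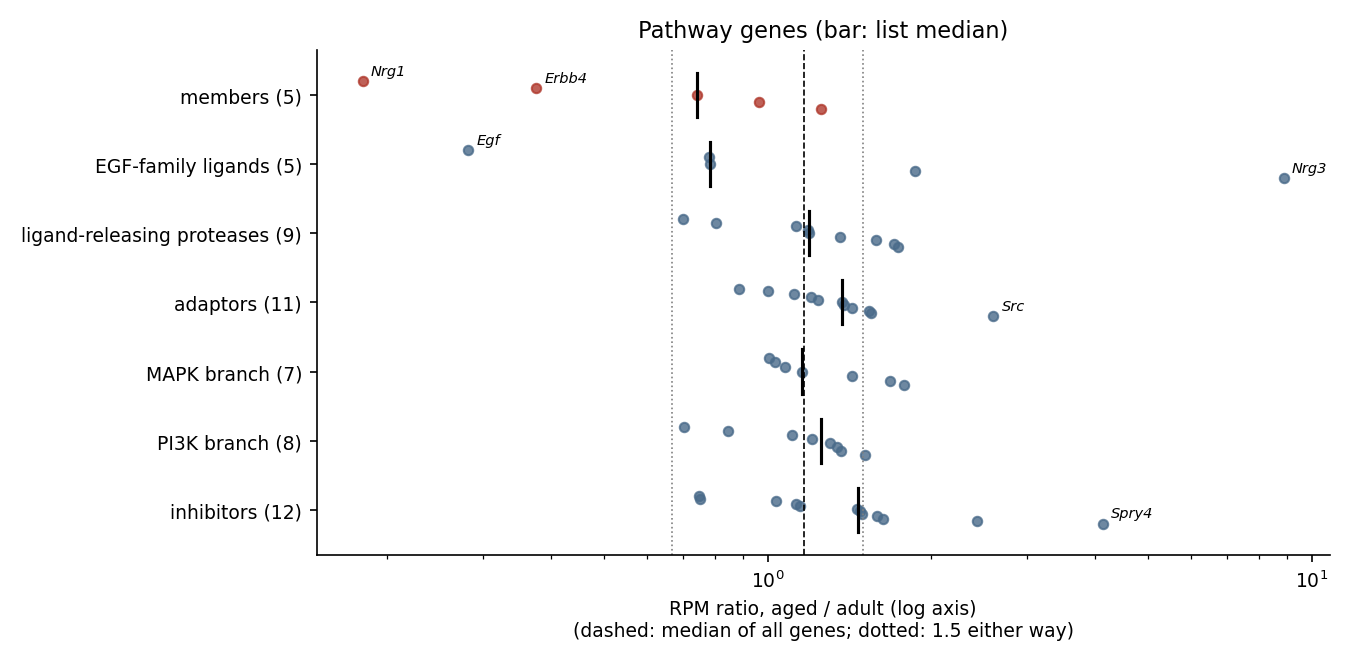
RPM ratio of aged over adult (log axis) of the 5 genes (red) and of the genes of 6 pathway lists with at least 20 reads in both libraries (blue, number per list in brackets), with a bar at each list's median, a dashed line at the median of all genes (1.17) and dotted lines at 1.5 in either direction. Egf (0.282) is the only pathway gene left of the lower threshold, and Nrg3 (8.88) and Spry4 (4.13) lie farthest to the right.

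The genes with the most similar pattern were taken by the Euclidean distance over 4 values, the log2 RPM of each allele in each library, centred on their mean, among genes with at least 100 reads in both libraries. For Nrg1 these were Actr3b at a distance of 0.275, with an RPM ratio of 0.178, and Hs3st5 at 0.362, with a ratio of 0.194. For Erbb4 they were Dhrs7c at 0.0369, with a ratio of 0.369, and Zfand4 at 0.112, with a ratio of 0.373. These were the nearest of 7263 candidates, and the distance of Nrg1 to its nearest gene was larger than that of Erbb4. For Egfr they were Ift140 (0.0468) and Npat (0.0712), for Erbb2 Nfe2l1 (0.105) and Gm38785 (0.112), and for Erbb3 Cyb5a (0.0583) and Mrps18a (0.0689). The likeness rests on 2 libraries and on the 2 alleles within each, and for Erbb2 and Erbb3 on under 100 reads per library.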

How the data were processed

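Nuclei from 1 adult and 1 aged heart were profiled by snRNA-seq with a 3′ kit. The authors aligned reads with Cell Ranger 7.1.0, pooled the alignments of nuclei with an active BL6 X chromosome and counted SNP-overlapping reads per RefSeq gene (GRCm38) with Allelome.PRO2. Doublets were removed by the authors from the expression matrices with DoubletFinder, and whether this filter also applied to the pooled nuclei is not given in the sources used here. Per gene, the deposited values are BL6, CAST and total counts (not normalized), the allelic ratio as a fraction rounded to 2 decimals, and an allelic score, which was not used. Whether reads of 1 molecule were collapsed or strand was used is not given in the sources used here. Reads counted more than once per molecule would make the intervals too narrow.

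From the counts, RPM, aged over adult RPM ratios (exact conditional binomial intervals), allelic ratios (Clopper-Pearson), levels (exact Poisson) and changes in allelic ratio (Newcombe) were computed with Python 3.11.15, scipy 1.17.1 and pandas 2.3.3. A minimum of 20 reads in both libraries was applied before a gene was called. DESeq2 1.42.0 and edgeR 4.0.16 (R 4.3.3) supplied size factors only. The depth was 9747535 and 5805807 reads, at which 0 reads allow up to 0.308 and 0.517 RPM (3 reads). The functions for the ratio, allelic ratio and change intervals were run on simulated data, and the Poisson function was not. Coordinates are those of the deposited values, raised by 1 at the start so as to count from 1, and strands are from GENCODE M21.

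The members, lists and thresholds were chosen with earlier results of these data known. Named were all 5 genes, the lowest, highest and most read gene of each pathway list, the most read marker of each cell type, the 2 genes nearest in pattern, and overlapping and nearest loci. Npr3, Tmem108, Smoc1, Cgnl1, Plvap, Ttn, Ctnna3, Rbm20, Actc1, the epicardial markers, Sox10, Foxd3, Nrg2, Tgfa, Btc, Hbegf, Areg and Errfi1 were chosen after their values were seen. Some genes that the rule also names are not reported here, Grb7 and Kcnj8 were not analysed here, and Erbin was matched to its older symbol Erbb2ip. Alternatives were other scales, read minimums, single alleles, the deposited or centred allelic ratio and the omission of overlapping loci. The marker reads as scale and the restriction to long loci were added after the data were seen.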

Additional observations from a re-analysis of the deposited data

How the results depend on the processing

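Of the values recomputed under an alternative, 68 stayed within the counting interval, or within 1.5 times for counts and shares of genes, and 27 moved beyond it. No called ratio changed direction under these alternatives, whereas the uncalled ratios kept theirs relative to 1 under 6 of 9 for Egfr and 8 of 9 for Erbb2. Nrg1 (0.139 to 0.252) and Erbb4 (0.322 to 0.524) stayed past the threshold for a lower call under all 9 alternatives, which do not include the epicardial markers as scale. On that scale, on which Muc16 holds most of the adult reads, their ratios were above 1, at 1.43 and 2.97. The RPM ratio of Nrg1 was nevertheless below that of the epicardial marker Wt1 (0.302). Erbb2 (0.611 to 1.04) was past it under 3 and Erbb3 (1.07 to 1.75) was past the threshold for a higher call under 1. The RPM ratio of Nrg1 was 0.234 with BL6 reads only, 0.139 with CAST reads only and 0.252 with endocardial marker reads as scale. For Erbb4 it was 0.356 without the 100 genes with most reads, 0.322 with DESeq2 size factors and with edgeR's TMM, 0.432 with cardiomyocyte and 0.524 with endocardial marker reads as scale. For Egfr these scales gave 0.827 (DESeq2), 0.827 (TMM), 1.11 (cardiomyocyte) and 1.35 (endocardial), so its direction depends on the scale. Centred on the autosomal median, the allelic ratio was 0.398 for Nrg1 (adult), 0.498 and 0.509 for Erbb4 (adult, aged) and 0.415 and 0.435 for Egfr, a shift that follows from the centring. With no minimum of reads, 18.6% of autosomal genes were lower, 17.7% biased and 42.4% changed in allelic ratio. With a minimum of 100 reads, 3.42% were biased and 14.7% changed. Among loci of 500 kb or longer, 28.6% were lower and 15.0% biased. Of the pathway genes, 0 were lower with a minimum of 100 reads, where Egf is left out, beside 9.93% of the autosomal genes. With DESeq2 size factors, 5 pathway genes were lower and 6 higher, beside 18.2% of the autosomal genes in either direction. Beyond what the settings themselves imply, the cause was not tested. No paired analysis was possible because there is 1 library per age, and no library could be left out. Depth limits Erbb2 and Erbb3, with under 100 reads per library, and the allelic ratio of Nrg1 in the aged heart.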
